A study of Mus musculus with 4 samples.

Results

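γδ T cells were examined in the injured mouse spinal cord at 14 days post-injury (dpi). They were selected on the UMIs (unique molecular identifiers, which count captured transcripts) of a few genes in each cell. Cells entered with 600 or more detected genes and no more than 10% of their UMIs from mitochondrial genes. It needed at least 2 UMIs of Cd3e, Cd3d and Cd3g together, which encode the invariant chains of the T cell receptor complex, and at least 1 UMI of Trdc, which encodes the constant region of the δ chain. It had to hold no UMI of Cd4, Cd8a, Cd79a, Csf1r or Csf3r. Of 11631 barcodes in the library at 14 dpi, 10879 passed the filter on genes and mitochondrial UMIs, 594 of these were T cells without B cell or myeloid genes, and 75 were γδ T cells, chosen by these values. All 4 libraries together held 31660 barcodes.

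The mice were C57BL/6 and 3 months old at surgery. Injured mice received a moderate contusion at spinal segment T10, and sham mice had the laminectomy without the contusion. CD45+ cells were sorted from the cord around the lesion, and 1 droplet library was sequenced for each of the sham with standard dissociation, the sham with actinomycin D (ActD, which blocks transcription during dissociation), 3 dpi and 14 dpi. Males and females in equal number were divided among the control, 3 dpi and 14 dpi groups, but how many of each sex entered a library is not stated. The injured cords were dissociated with ActD according to the published account, while the labels name it for the sham alone. With 1 library per condition there was no test between conditions, and cells of 1 library are not replicates, so no p-value is given. All intervals below are exact 95% intervals and cover counting error only.

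γδ T cells carry a receptor made of a γ and a δ chain in place of the α and β chains of conventional T cells. In mice, several waves leave the thymus before and around birth and settle in tissues such as the skin, the lung, the meninges and the uterus, and each wave uses few variable segments. Many of these cells are set up in the thymus to make interleukin 17A (IL-17A), and others make interferon γ and resemble natural killer (NK) cells.

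The gate itself set some values, which are given as a description. The 75 cells held 1 to 45 Trdc UMIs with a median of 8, and 2 to 53 UMIs of the 3 Cd3 genes with a median of 15. The threshold on Cd3 was of little weight, since 1 cell lay just inside it with 2 UMIs and 1 cell just outside with 1 UMI. Another 63 cells had a Trdc UMI and no Cd3 UMI, and 49 of these held a UMI of Ncr1, the NK cell receptor NKp46. The threshold on Trdc was passed with exactly 1 UMI by 4 cells, and 153 T cells without Cd4 or Cd8a had none. The exclusion of other cell types weighed more. Of 133 cells with enough Cd3 and a Trdc UMI, 54 were removed for Cd79a, Csf1r or Csf3r, of which 24 for a single UMI, and 4 for Cd4 or Cd8a. The γδ T cells had a median of 4758 UMIs and 1899 genes per cell, against 5207 UMIs and 1893 genes in the 515 T cells of the same library without a Trdc UMI, which served for comparison. The latter comprised 171 cells with Cd4, 190 with Cd8a, 153 with neither and 1 with both.

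The label was checked against the genes of the γδ receptor that the gate did not use. Of the 75 cells, 70 held a UMI of Tcrg-C1, Tcrg-C2 or Tcrg-C4, the constant regions of the γ chain, and 59 held Tcrg-C1. The summed level of Tcrg-C1 was 897 CPM (UMIs of the gene per 1000000 UMIs of the group, interval 804 to 998) in the γδ T cells and 20.6 CPM (15.7 to 26.6) in the Trdc-negative T cells, a log2 ratio of 5.43 (5.04 to 5.87). Tcrg-C2 reached 244 against 18.5 CPM and Tcrg-C4 185 against 15 CPM. The chain genes of the other receptor were lower, but only Trac by at least 2-fold. Trac, the constant region of the α chain, was at 75 against 516 CPM, and 18 of the 75 cells held a UMI of it, 5 of them more than 1. Trbc1 and Trbc2, the constant regions of the β chain, were at 436 and 777 CPM against 685 and 1319 CPM, and as near copies of each other they may share reads. Most γδ T cells held β chain transcripts. In the division by the δ segment Trdv4 treated below, Trbc2 was found in 45 of 52 cells with Trdv4 and 19 of 23 without. Trbc1 was found in 34 and 15 of them. Of the other markers given for these cells, Il17a stood at 487 against 16.8 CPM, while Icos, a costimulatory receptor, differed less, at 193 against 133 CPM.

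The γ constant genes are near copies of each other, so their UMIs may be split. In GENCODE M21 (GRCm38), the first exons of Tcrg-C1 and Tcrg-C2 had the same base at 321 of 330 positions (97.3%), whereas Tcrg-C1 and Tcrg-C4 shared 271 (82.1%). Of the 875 stretches of 50 bases in the Tcrg-C1 transcript, 157 (17.9%) occurred unchanged in that of Tcrg-C2 and 0 in that of Tcrg-C4. The first 60 bases of these exons are shown as an example of their likeness, with the positions that differ among the 3 genes in capitals, although reads of a 3′ library come mostly from further along the transcript. They lie at chr13:19214103-19214162 on the plus strand, chr13:19307492-19307551 on the minus strand and chr13:19344558-19344617 on the plus strand.
Tcrg-C1: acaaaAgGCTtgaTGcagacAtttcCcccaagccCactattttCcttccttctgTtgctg
Tcrg-C2: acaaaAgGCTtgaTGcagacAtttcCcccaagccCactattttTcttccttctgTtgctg
Tcrg-C4: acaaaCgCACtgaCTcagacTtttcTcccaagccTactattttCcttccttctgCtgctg

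Of the δ variable segments Trdv1 to Trdv5, a single one accounted for all detections. Segments shared with the α chain were not looked up. Trdv4, the segment that pairs with Tcrg-V6 in a wave of γδ T cells from the fetal thymus, was detected in 52 of the 75 cells, and no UMI of Trdv1, Trdv2-1, Trdv2-2, Trdv3 or Trdv5 was found in any. With a floor of 3 counts, this allows a detected UMI of each in up to 4% of cells, and says nothing of how many cells use a segment whose transcript went undetected. The level of Trdv4 was 704 CPM (622 to 795) against 2.09 CPM (0.769 to 4.56) in the Trdc-negative T cells, a log2 ratio of 8.28. Cells held up to 14 UMIs of it. Among the γ segments, Tcrg-V6 was found in 16 cells, of which 15 also held Trdv4, Tcrg-V1 in 7, Tcrg-V5 in 5 and Tcrg-V4 in 4. Trgv2, which was looked up after values were seen, was detected in 37 cells, and in 36 of the 515 Trdc-negative T cells. The second exon of Trdv4, which codes for the variable domain, lies at chr14:54075217-54075515 on the plus strand (GRCm38) and is shown because its detection divides the γδ T cells below.
Trdv4: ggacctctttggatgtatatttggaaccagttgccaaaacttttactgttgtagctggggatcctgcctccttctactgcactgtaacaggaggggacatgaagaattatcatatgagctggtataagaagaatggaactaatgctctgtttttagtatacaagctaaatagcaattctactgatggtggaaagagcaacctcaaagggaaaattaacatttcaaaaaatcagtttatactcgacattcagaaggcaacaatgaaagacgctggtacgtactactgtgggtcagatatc

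NK cells can transcribe the δ locus without a receptor on the surface, and such transcripts were found here. Among 217 NK-like cells, gated on a UMI of Ncr1 and none of the Cd3 genes, 49 (22.6%) held a Trdc UMI and 33 (15.2%) a Trdv4 UMI. Of the 393 B cells, 0 held a Trdc UMI, and of 4142 microglia 21 did (0.507%). Tcrg-C1 was rare in the NK-like cells, at 3.34 CPM in 2 cells, and Cd163l1 was at 1.67 CPM. The NK-like cells had a median of 4704 UMIs, close to the 4758 of the γδ T cells.

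Across all genes, the γδ T cells stood apart from the Trdc-negative T cells in a limited part of the transcriptome. With genes of at least 50 UMIs over both groups, and without the genes of the gate, 6289 were compared. Of these, 321 (5.10%) were at least 2-fold higher in the γδ T cells and 306 (4.87%) at least 2-fold lower, with a median log2 ratio of 0.09. Ratios were computed on UMIs summed over the cells of each group, with 0.5 UMI added to each sum, and the intervals on the sums alone. The plot of all genes compared shows that genes of low level scatter most.

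**Figure D1:**
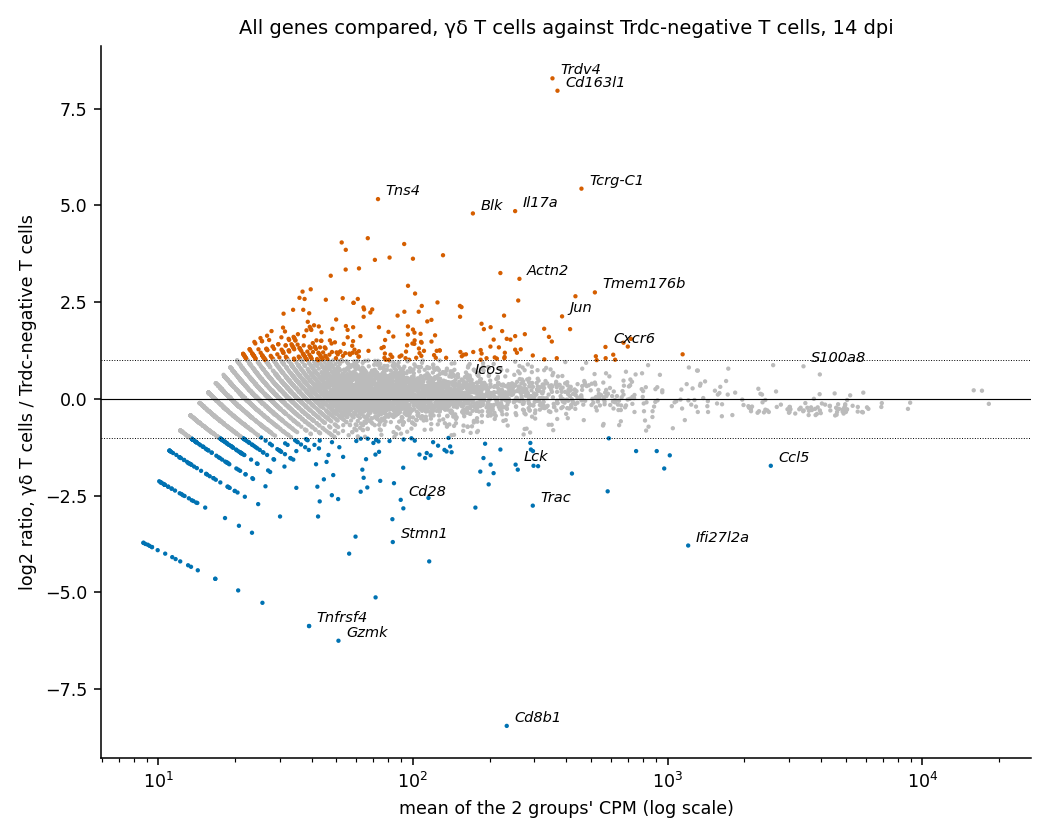
Each point is 1 of 6289 genes, with the mean CPM of both groups on the x axis (log scale) and the log2 ratio of γδ T cells over Trdc-negative T cells on the y axis. Orange marks the 321 genes at least 2-fold higher, blue the 306 at least 2-fold lower and dotted lines the 2-fold limits. Trdv4, Cd163l1 and Tcrg-C1 lie at the top, and Cd8b1, whose place follows from the exclusion of Cd8a, at the bottom.

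Beyond the receptor genes, those of the type 17 programme were higher. Of 25 such genes, 17 had enough UMIs, and 16 were at least 2-fold higher, where 5.10% of all genes were, with a median log2 ratio of 2.75. The filter sums UMIs over both groups, and Cd163l1, Il17a and Blk, among others, passed it only through the γδ T cells. Genes that entered so were bound to come out higher. The filter thus shaped this count in part, and it is given as a description. None was 2-fold lower, and Batf, a transcription factor of T helper 17 cells, was at -0.51 (-1.50 to 0.26). Cd163l1, which encodes the scavenger receptor SCART1 of γδ T cells, was at 736 CPM (652 to 829) against 2.79 CPM (1.21 to 5.50), a log2 ratio of 7.96. It was detected in 51 of the 75 cells and in 4 of the 515 Trdc-negative T cells. The log2 ratio of Blk, a Src family kinase used by IL-17A-producing γδ T cells, was 4.79 (4.25 to 5.40), from 332 against 11.9 CPM. Zbtb16, which encodes the innate T cell factor PLZF, was at 85.7 against 9.43 CPM, and Maf, a factor that promotes the γδ type 17 fate, at 509 against 146 CPM. Sox13, another factor of this fate, had too few UMIs to be compared but was found as 34 UMIs in 21 γδ T cells and as 1 UMI in the Trdc-negative T cells.

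Il17a itself was the main cytokine gene of the programme. It was detected in 37 of the 75 γδ T cells with up to 23 UMIs in a cell, and the cell with the most held 12.6% of the group's UMIs. Its level was 487 CPM (419 to 564) against 16.8 CPM (12.4 to 22.2) in the Trdc-negative T cells, a log2 ratio of 4.85 (4.40 to 5.35). T cells with Cd4 were at 3.39 CPM and T cells with Cd8a at 0.857 CPM, so that the T cells with neither, at 55.7 CPM, held 44 of the 48 Il17a UMIs of the Trdc-negative T cells. Over the whole library, 182 of 349 Il17a UMIs (52.1%) fell in the 75 γδ T cells, and 343 (98.3%) in cells with at least 2 Cd3 UMIs. Of 86 cells with Il17a, 59 (68.6%) held a Trdc UMI, and 2 held Cd4 and no Trdc. Il17f, the neighbouring cytokine gene, was found in 2 γδ T cells, and 5 of its 6 UMIs came from 1 of them. Il22 was at 0 UMIs. No γδ T cell held both Il17a and Ifng, of which there were 6 UMIs in 5 cells.

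The receptors through which interleukin 1 and interleukin 23 drive IL-17A release were detected as well. Il1r1 was at 126 against 6.98 CPM, in 30 cells. Il23r, with 28 UMIs in 21 cells against 5 UMIs, was too rare for the comparison. Il18r1, a chain of the interleukin 18 receptor, was at 287 against 140 CPM, and Il17re, which encodes a receptor for interleukin 17C, at 48.2 against 6.63 CPM on 37 UMIs in all. Other genes of the list were Actn2, a muscle actinin found in type 17 γδ T cells, at 469 against 54.8 CPM, Tmem176b, a cation channel, at 902 against 134 CPM (2.75, but 0.87 with UMIs of the excluded genes allowed), Ramp1, a subunit of the receptor for calcitonin gene-related peptide, at 442 against 76.1 CPM, and Ltb4r1, a leukotriene B4 receptor, at 260 against 50.3 CPM.

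Promoters of these genes were searched for AGGTCA, a core motif of nuclear receptors, on both strands (TGACCT on the other) in RefSeq windows of 300 bases, 250 before and 50 after the start (GRCm38.p6). Of 32851 windows, 5340 (16.3%) held it, and of 27025 genes with a window 4900 (18.1%) held it in at least 1. Of the 21 type 17 genes with a window, 7 did. The Il17a and Il23r windows are shown with the matches in capitals, at chr1:20730655-20730954 on the plus strand and chr6:67491806-67492105 on the minus strand. A match is a description of the sequence and not a binding site.
Il17a: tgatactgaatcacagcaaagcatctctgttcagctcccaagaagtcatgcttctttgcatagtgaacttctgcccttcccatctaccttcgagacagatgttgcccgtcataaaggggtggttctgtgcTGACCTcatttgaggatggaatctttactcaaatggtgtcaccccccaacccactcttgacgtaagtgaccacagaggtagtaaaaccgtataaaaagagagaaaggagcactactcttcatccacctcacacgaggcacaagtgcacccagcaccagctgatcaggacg
Il23r: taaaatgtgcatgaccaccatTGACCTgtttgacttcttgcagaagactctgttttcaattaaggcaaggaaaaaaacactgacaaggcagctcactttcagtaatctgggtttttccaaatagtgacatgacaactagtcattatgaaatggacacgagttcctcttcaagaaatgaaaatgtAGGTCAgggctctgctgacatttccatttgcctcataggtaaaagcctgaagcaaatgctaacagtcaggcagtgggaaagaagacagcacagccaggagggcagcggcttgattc

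Shares of cells were compared at equal depth by drawing 1000 UMIs from each cell, which left out no T cell or NK-like cell. Cd163l1 was then detected in 54.7% (42.7 to 66.2) of the γδ T cells, against 68.0% without the draw, and in 1.31% of T cells with neither Cd4 nor Cd8a. Il17a was detected in 34.7% (24.0 to 46.5) against 3.27% (1.07 to 7.46). The share with Icos was 17.3% (9.57 to 27.8) in the γδ T cells, 16.4% (11.2 to 22.8) in the T cells with Cd4 and 18.3% (12.5 to 25.4) in those with neither, so Icos did not set the γδ T cells apart from these.

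**Figure D2:**
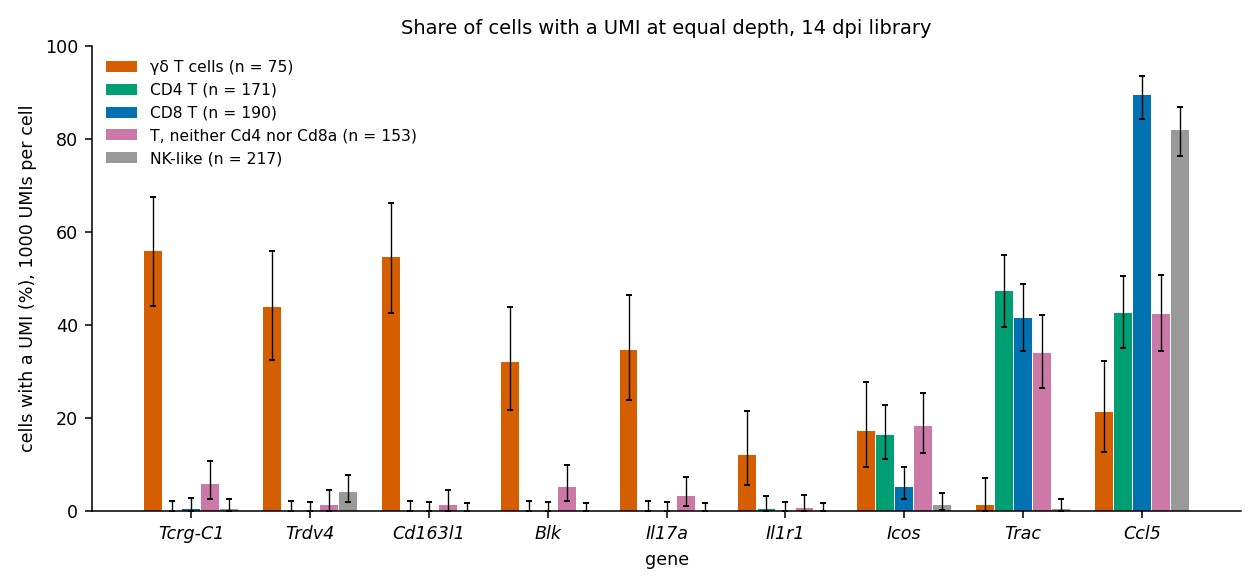
Bars show the percentage of cells with a UMI after each cell was drawn down to 1000 UMIs, for 9 genes in 75 γδ T cells, 171 T cells with Cd4, 190 with Cd8a, 153 with neither and 217 NK-like cells of the 14 dpi library, with exact 95% binomial intervals. Tcrg-C1, Cd163l1, Blk and Il17a stand out in the γδ T cells, Icos does not, and Trac and Ccl5 are lower there than in T cells with Cd4 or Cd8a.

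Type 1 and cytotoxic genes were lower or alike over all 75 cells, but not in those without Trdv4 described below. Of 20 genes, 19 were compared, 9 were at least 2-fold lower, where 4.87% of all genes were, and 0 higher, with a median log2 ratio of -0.92. With UMIs of the excluded genes allowed in both groups 2 were lower and the median was -0.28, and against T cells with neither Cd4 nor Cd8a 5 were lower. Without cells holding Ncr1 or Klrb1c, 14 were lower and the median was -2.09. In the 23 γδ T cells without a Trdv4 UMI, 6 of the list were at least 2-fold higher and 2 lower, with a median of 0.15. Over all genes compared in that setting, 351 were at least 2-fold higher and 583 lower. Over all genes, 398 were lower with UMIs of the excluded genes allowed and 77 against T cells with neither Cd4 nor Cd8a. Without cells holding Ncr1 or Klrb1c, 387 were lower. The number of genes compared in each setting is not given here, so the 4.87% is no measure for these counts. Ccl5, a chemokine of effector T cells, was at 1178 against 3904 CPM (-1.73, interval -1.87 to -1.59, or -0.97 with UMIs of the excluded genes allowed). Nkg7, a cytotoxic granule protein, was at 509 against 1303 CPM (-1.35, or -0.65 against T cells with neither Cd4 nor Cd8a). The log2 ratios of Ccl5 and Nkg7 were -4.10 and -2.78 without cells holding Ncr1 or Klrb1c. Ifng was at 16.1 against 73.3 CPM, and Gzmb, which encodes granzyme B, at 32.1 against 198 CPM. Gzmk, which encodes granzyme K, was not detected, against 292 UMIs, which makes it at least 12.7-fold lower against a floor of 3 counts over all γδ T cells (8.03 CPM), the floor used for every gene at 0 UMIs. Gzma, at 158 against 153 CPM, rested on 4 cells, of which 1 held 66.1% of the UMIs.

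The γδ T cells differed in how they hold the receptor machinery. Of 16 genes compared, 6 were at least 2-fold lower, where 4.87% of all genes were, 1 of them through the gate, and Cd247, the ζ chain, was higher at 284 against 135 CPM (1.07, interval 0.74 to 1.38). Lck, the kinase that starts receptor signalling, was at 118 against 388 CPM (-1.70, or -0.97 with UMIs of the excluded genes allowed). Cd2, an adhesion receptor, was at 85.7 against 329 CPM, and Cd5, an inhibitory receptor set by the strength of selection, at 40.2 against 143 CPM. Cd6, a relative of Cd5, was at 13.4 against 88.3 CPM, and the costimulatory receptor gene Cd28 at 24.1 against 155 CPM (-2.61, or -1.40 with UMIs of the excluded genes allowed). The sixth was Cd8b1, which the exclusion of Cd8a cells fixed at 0 UMIs. Zap70, the next kinase, was at 185 against 98.8 CPM, and Lat and Thy1 were within 0.18 on the log2 scale.

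Checkpoint and activation genes did not move together. Of 14 genes compared, 3 were at least 2-fold higher and 4 lower, against 5.10% and 4.87% of all genes. Pdcd1, which encodes PD-1, was at 212 CPM in the γδ T cells and 37.7 CPM in the Trdc-negative T cells (2.49, interval 2.05 to 2.92, or 1.34 in cells called male), Il2ra, the α chain of the interleukin 2 receptor, at 80.3 against 19.6 CPM, and Cd44 at 241 against 104 CPM. Tnfrsf4, which encodes OX40, was not detected against 224 UMIs, at least 9.73-fold lower, and Cd40lg, the CD40 ligand gene, was seen as 1 UMI against 126. Ctla4 and Tnfrsf18 were also lower, at 16.1 and 75 CPM against 50.3 and 165 CPM. Foxp3, the regulatory T cell factor, was at 0 UMIs against 82. The gate barred Cd4 from the γδ T cells, while the comparison group held 171 T cells with Cd4. The part of this in the lower values of Tnfrsf4, Cd40lg, Ctla4, Tnfrsf18 and Foxp3 was not tested.

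Among tissue residence genes, 3 of 11 were at least 2-fold higher and 0 lower, with a median log2 ratio of 0.59, where 5.10% of all genes were higher and 4.87% lower. Itgae, the CD103 integrin, was at 61.6 against 17.8 CPM, Gpr183, an oxysterol receptor, at 311 against 147 CPM, and Rgs2 at 179 against 75.8 CPM. Of 10 naive and recirculation genes, 3 were lower and 0 higher, with Ccr7 at 1 UMI against 52. Of 11 migration receptors, 2 were at least 2-fold higher and 3 lower. The chemokine receptor genes Cxcr6 (817 against 323 CPM) and Ccr2 (514 against 170 CPM) were the higher ones, and those lower included the integrin genes Itga4 (137 against 458 CPM) and Itgb1 (388 against 787 CPM). Of 18 cytokine receptors and STATs, 1 was higher and 2 lower, a share of higher genes near that of all genes. Il7r was the one higher, at 841 against 382 CPM, but its log2 ratio of 1.14 was 0.81 against T cells with neither Cd4 nor Cd8a and 0.99 without cycling cells. Those lower included Il6ra (5.36 against 28.3 CPM).

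Interferon response genes were lower than in the Trdc-negative T cells. Their sum was 1545 CPM in the γδ T cells and 5182 CPM in the Trdc-negative T cells. It was 2052 CPM in the NK-like cells and 1535 CPM in the B cells, so a low level was not particular to the γδ T cells. Of 16 genes, all of which were compared, 12 were at least 2-fold lower, where 4.87% of all genes were, and 0 higher, with a median log2 ratio of -1.49. Ifi27l2a, an interferon-induced mitochondrial protein gene, was at 161 against 2247 CPM (-3.79, interval -4.20 to -3.44, or -1.40 with UMIs of the excluded genes allowed), and was detected in 20 cells. Ifit1 and Ifit3, of the antiviral response, were at 16.1 and 21.4 CPM against 150 and 162 CPM. Isg15, a ubiquitin-like modifier, was at 69.6 against 327 CPM. When UMIs of the excluded genes were allowed in both groups, 3 of the 16 were lower and the median was -0.43, and against T cells with neither Cd4 nor Cd8a 6 were lower. The cells so admitted to the γδ group held UMIs of Cd4, Cd8a, Cd79a, Csf1r or Csf3r, and their part in this was not tested. Over all genes compared, 398 were lower with those UMIs allowed and 77 against T cells with neither Cd4 nor Cd8a.

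Proliferation genes were lower at 7 of 13, where 4.87% of all genes were, with a median log2 ratio of -1.20. Stmn1, a microtubule regulator of dividing cells, was at 10.7 against 156 CPM (-3.70, or -1.89 with UMIs of the excluded genes allowed), Top2a at 21.4 against 111 CPM and Mki67 at 24.1 against 104 CPM. Cells with at least 3 genes of this list made up 12 of 75 γδ T cells (16%, 8.55 to 26.3) and 24.5% (20.8 to 28.4) of the Trdc-negative T cells. Against T cells with neither Cd4 nor Cd8a, 3 of the list were lower, and in cells called male 2 were. Over all genes compared, 77 and 212 were lower in these settings. With cycling cells left out, which were defined by this list, 0 were lower and the median was -0.33. The 12 glycolysis genes compared were all within 2-fold. Of 8 lipid handling genes, 3 were higher, where 5.10% of all genes were, led by the triglyceride-forming enzyme gene Dgat1 at 153 against 32.1 CPM. Among cytokine and growth factor genes, Furin, a protease that activates TGFβ, was higher at 123 against 37.4 CPM, Ltb was at 1542 against 881 CPM in all 75 cells, and the chemokine genes Ccl3 and Ccl4 and the CD30 ligand gene Tnfsf8 were lower. Csf2 was found as 14 UMIs in 10 cells. Both type 2 genes compared, Gata3 and Klrg1, were lower.

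Immediate early genes were higher at 5 of 12, where 5.10% of all genes were, and lower at 0, with a median log2 ratio of 0.81. Jun was at 627 against 143 CPM (2.13, interval 1.90 to 2.37, but 1.20 against T cells with neither Cd4 nor Cd8a and 1.49 with UMIs of the excluded genes allowed), Fos at 418 against 132 CPM and Fosb at 345 against 103 CPM. These genes respond to dissociation as well as to stimulation, and the part of either in this difference was not tested.

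**Figure D3:**
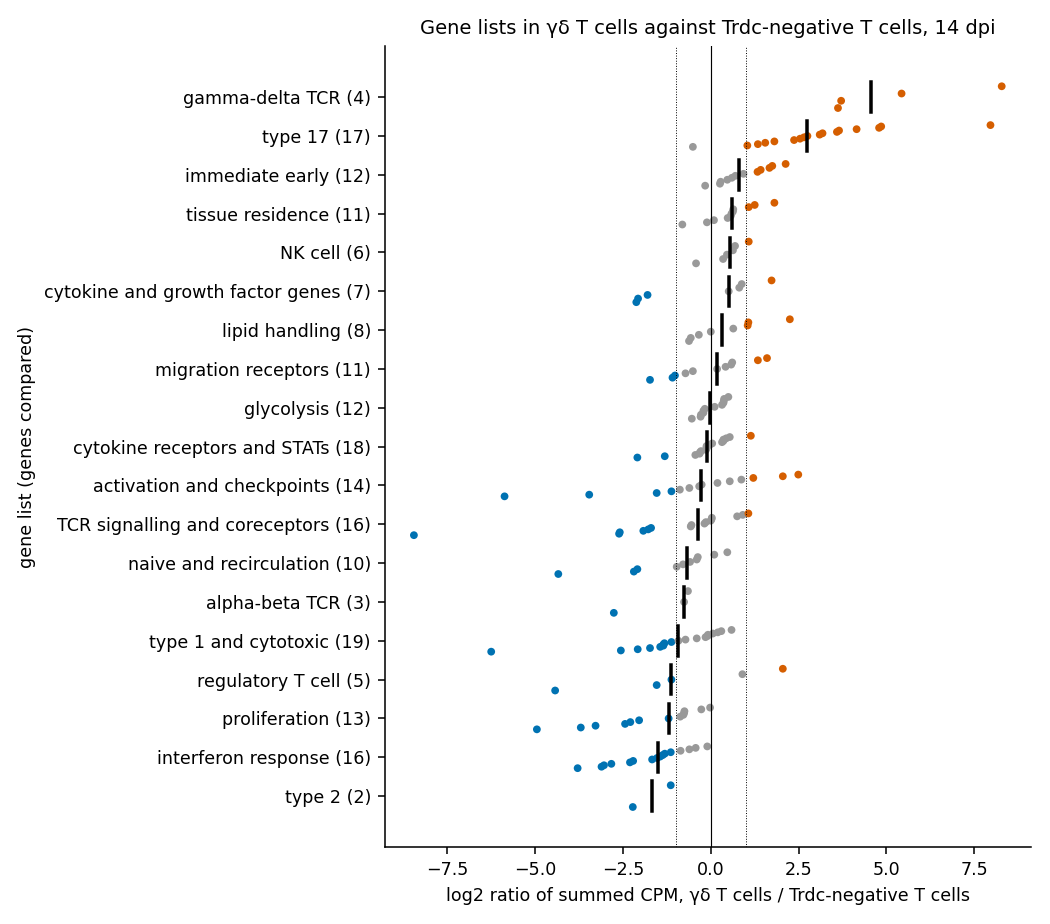
Each point is a gene of a list with at least 50 UMIs, at its log2 ratio of γδ T cells over Trdc-negative T cells, coloured where at least 2-fold higher (orange) or lower (blue). Black bars are list medians, from 4.57 for the γδ receptor genes and 2.75 for the type 17 genes down to -1.49 for the interferon response and -1.68 for the 2 type 2 genes.

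Outside the lists, the 15 genes with the highest ratios began with Tns4, a member of the tensin family, at 142 against 3.84 CPM (5.16, interval 4.25 to 6.29) in 38 of the 75 cells. Kcnk1, a potassium channel, followed at 99.1 against 5.93 CPM, then Abi3bp at 174 against 10.8 CPM, Plxnd1, a semaphorin receptor, at 102 against 6.98 CPM, and Smox, a spermine oxidase, at 112 against 10.8 CPM. Serpinb1a, a protease inhibitor, had the highest level of these at 399 against 41.9 CPM. Igf1r, the insulin-like growth factor 1 receptor, was at 104 against 17.5 CPM. Clnk, Ly6g5b, Acpp, Sdc4, Hyou1, Cpd, Sept8 and Adam8 made up the rest, with log2 ratios of 2.56 to 3.34. The ratios were smaller against T cells with neither Cd4 nor Cd8a. There Tns4 was at 13.9 CPM, Kcnk1 at 20.2 CPM, Abi3bp at 39.2 CPM, Serpinb1a at 100 CPM and Igf1r at 48.1 CPM. All 5 were higher there than in T cells with Cd4 or Cd8a. Clnk was at 81.0 CPM in the NK-like cells, against 99.1 CPM in the γδ T cells.

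At the other end, 12 of the 15 genes with the lowest ratios had 0 UMIs in the γδ T cells. Iigp1, an interferon-induced GTPase gene, had 224 UMIs in the Trdc-negative T cells, so that it was at least 9.73-fold lower, and Ifit3b was of the same response. Hist1h1b, Hist1h1d, Hist1h2ap, Tpx2, Clspn and Uhrf1 are genes of DNA replication, histones or mitosis. Gm8369, with 1 UMI against 401 in 218 cells, Fam169b, Fam49a, Chst2, Gzmc, Arhgef12 and Mctp2 completed the set.

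Markers of other cell types were examined beside these results. For every marker list here, the share over all genes compared was 5.10% at least 2-fold higher and 4.87% at least 2-fold lower. Of 8 neutrophil markers 7 were compared and 3 were at least 2-fold higher, and their sum was 12010 against 6902 CPM. Their most abundant gene was S100a9, and a single γδ T cell held 69.0% of its UMIs and 71.9% of those of S100a8. Of 7 dendritic cell markers, H2-Aa and H2-Ab1 were higher, but 1 cell held 93.6% of the H2-Aa UMIs, and Flt3 and Xcr1 were at 0. The 6 microglial genes compared were between -0.51 and 0.84, with a sum of 913 against 902 CPM, led by C1qa, and P2ry12 was at 2 UMIs. Of 8 macrophage and monocyte genes, Ccr2 and Itgam were higher, Apoe was the most abundant at 2844 against 2485 CPM, and Mrc1 and Ms4a7 were at 0. B cell markers summed to 672 against 415 CPM, mostly Cd74 at 495 CPM, with Ms4a1 at 0 UMIs. Erythroid, endothelial, glial and mast cell markers summed to at most 66.9 CPM each. Without cells holding H2-Aa or Ngp, an alternative chosen after seeing the data, 48 γδ T cells were left.

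The γδ T cells were not uniform. They were divided by a Trdv4 UMI, a division chosen after seeing the data, into 52 cells with it (median 4418 UMIs per cell and 11 Trdc UMIs) and 23 cells without (5489 UMIs and 4 Trdc UMIs). Of 4943 genes with at least 10 UMIs over both, 751 (15.2%) were at least 2-fold higher in the cells with Trdv4 and 315 (6.37%) at least 2-fold lower. The type 17 genes were higher at 17 of 21 and lower at 1. The type 1 and cytotoxic genes were higher at 0 of 16 and lower at 14, and the NK cell genes were lower at 7 of 7. Genes could pass the filter on UMIs through 1 side alone. Ncr1 (0 UMIs with Trdv4 against 11 without), Eomes (0 against 14) and Il17re (18 against 0) were among those that did so. Others were Xcl1 (0 against 72), Gzma (0 against 59), Klra7 (0 against 17), Klra8 (0 against 11) and Fasl (0 against 11). Klrb1c (1 against 21) and Klre1 (1 against 30) passed through 1 side as well. Of the NK cell genes counted, Tyrobp (60 against 83) and Fcer1g (51 against 84) had many UMIs on each side. The filter thus shaped these counts in part, and they are given as a description. The neutrophil markers summed to 17662 CPM in the cells with Trdv4 and 1069 CPM in those without, S100a9 being the most abundant of them in the γδ T cells and mostly from 1 cell. Dendritic cell markers summed to 910 against 102 CPM, H2-Aa again mostly from 1 cell, B cell markers to 914 against 204 CPM and macrophage and monocyte markers to 4524 against 3773 CPM, while microglial markers were at 922 against 896 CPM. The part of these markers in the division was not tested. Cycling cells numbered 11 with Trdv4 and 1 without.

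Cells with Trdv4 carried Cd163l1 in 48 of 52 (92.3%, interval 81.5 to 97.9), against 3 of 23 (13.0%, interval 2.78 to 33.6). Il17a was found in 34 of 52 and in 3 of 23. Pdcd1 was at 301 CPM in cells with Trdv4 and 39.3 CPM in those without, and Icos at 256 against 70.8 CPM, so both genes were low in the cells without Trdv4. Il2ra was found in 20 cells against 1. Ccr2 was at 711 against 134 CPM, Cxcr6 at 1088 against 291 CPM and Il7r at 1105 against 330 CPM. For these 3 genes the cells without Trdv4 were not above the Trdc-negative T cells, with log2 ratios of -0.31, -0.13 and -0.19.

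The 23 cells without Trdv4 held most of the cytotoxic transcripts. Ccl5 was at 3412 CPM in 19 of 23 cells, against 24.4 CPM in 5 of 52. Nkg7 was at 1439 against 28.4 CPM, Klrd1, the CD94 NK receptor chain, at 393 against 16.2 CPM, and Ly6c2, a marker of memory T cells, at 1132 against 56.9 CPM. Xcl1, a chemokine for cross-presenting dendritic cells, and Gzma were absent from the cells with Trdv4, against 72 and 59 UMIs. Ncr1 or Klrb1c (NK1.1) was found in 11 of 23 cells against 1 of 52. The lower Lck of the γδ T cells also lay with Trdv4. Lck was at 8.12 CPM in 2 of 52 cells with Trdv4 and at 330 CPM in 15 of 23 without, and the latter differed from the Trdc-negative T cells by -0.22 on the log2 scale. Cd2 showed the same order, at 24.4 against 204 CPM. The gene 5830411N06Rik, which encodes the SCART2 receptor of another type 17 γδ population, was found in 0 of 52 and in 5 of 23 cells. NK-like cells also carried Trdc, so how many of the 23 cells had a γδ receptor cannot be told from these counts. Tcrg-C1 was detected in 9 of them, Tcrg-C2 in 16 and Tcrg-C4 in 14. Their levels of Tcrg-C2 and Tcrg-C4 were 267 and 197 CPM, against 231 and 179 CPM in the cells with Trdv4 and 1.67 and 20.9 CPM in the NK-like cells.

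**Figure D4:**
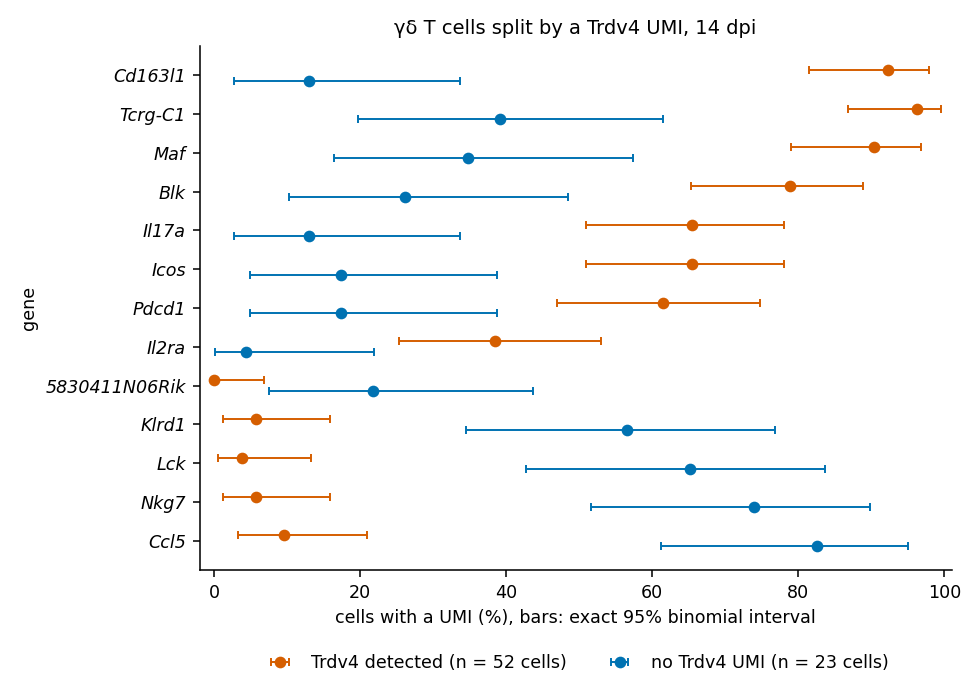
Percentage of cells with a UMI of 13 genes in the 52 γδ T cells with a Trdv4 UMI (orange) and the 23 without (blue), with exact 95% binomial intervals. Cd163l1, Il17a, Pdcd1 and Icos lie far to the right in the cells with Trdv4, and Klrd1, Lck, Nkg7 and Ccl5 in the cells without.

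Genes were also counted per cell. Of 9 type 17 genes chosen after seeing the data (Il17a, Il17f, Il23r, Il1r1, Blk, Sox13, Zbtb16, Cd163l1 and 5830411N06Rik), 53 of the 75 cells held at least 3, 6 held 1 or 2, and 16 held 0. Of the Trdc-negative T cells 11 of 515 held at least 3, and all 11 lacked Cd4 and Cd8a. At least 2 of 8 type 1 genes (Tbx21, Eomes, Ifng, Gzmb, Gzma, Prf1, Klrd1 and Fasl) were held by 2 of the 53 cells and by 13 of the other 22. The comparison group may itself hold γδ T cells whose Trdc went undetected, since 33 of its 515 cells (6.41%) held Tcrg-C1, Trdv4 or Cd163l1. Set against the 153 cells with neither Cd4 nor Cd8a alone, the log2 ratio of Il17a was 3.12 and that of Tcrg-C1 3.87, and Icos was at -0.00. Blk was at 2.93 and Actn2 at 2.10 in the same comparison, so these ratios were lower there as well.

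Ifi27l2a was low on both sides of this division. It was at 122 CPM in the cells with Trdv4 and 236 CPM in those without, both under the 2247 CPM of the Trdc-negative T cells. No interferon response gene of the 10 with enough UMIs differed 2-fold between the 2 sides.

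Sex was read for each cell from Xist and 4 Y-linked genes, since mice of both sexes entered the study. Of the 75 γδ T cells 44 were called female, 13 male and 18 had no call, so that 22.8% (12.7 to 35.8) of called cells were male. The share was 37.3% (32.4 to 42.4) in the Trdc-negative T cells, 27.5% in the NK-like cells, 47.4% in the microglia and 88.4% (83.7 to 92.2) in the B cells. Since the mice of each sex behind this library are not stated and cells cannot be assigned to mice, differences between mice and between sexes cannot be told apart. Among called cells, the γδ T cells made up 8.50% of male T cells and 15.5% of female T cells.

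The same gate was applied to the other libraries. It found 1 cell in the sham with standard dissociation, 2 in the sham with ActD and 15 at 3 dpi. The share of T cells was 5% (1 of 20, interval 0.127 to 24.9), 11.1% (2 of 18, 1.38 to 34.7), 3.77% (15 of 398, 2.12 to 6.14) and 12.6% (75 of 594, 10.1 to 15.6) at 14 dpi. The intervals of the injured libraries did not overlap, while those of the shams were too wide to place them. The gate needs a detected Trdc UMI, and T cells were shallower at 3 dpi. The γδ and Trdc-negative T cells had medians of 2823 and 3939 UMIs there, against 4758 and 5207 at 14 dpi. The part of depth in the shares was not tested. Of all cells kept, the share was 0.0174%, 0.0908%, 0.157% and 0.689%. The shares within a library do not give numbers per cord, and differences between libraries cannot be told apart from differences between mice or runs.

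**Figure D5:**
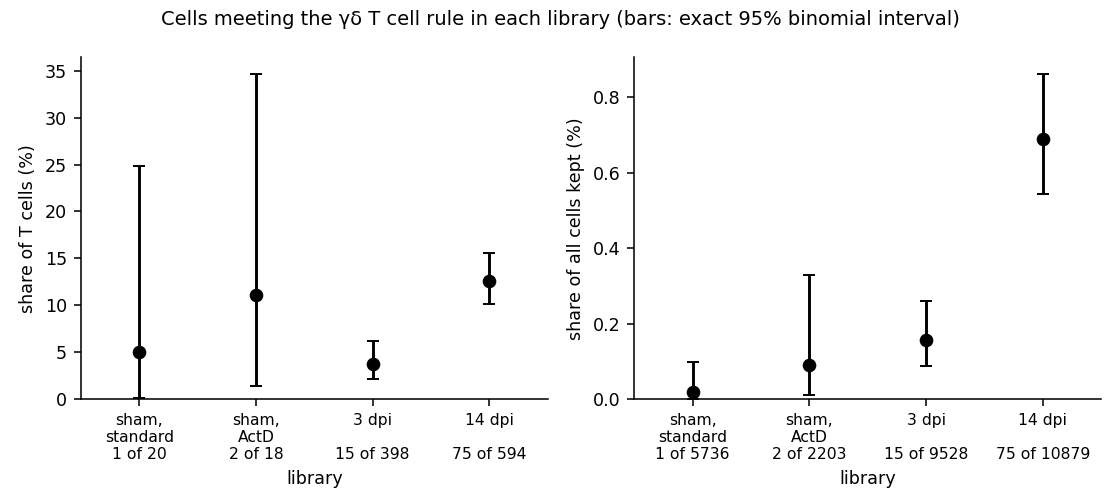
Cells that met the gate as a percentage of T cells (left) and of all cells kept (right) in each of the 4 libraries, with exact 95% binomial intervals and the counts below each library. The share of T cells is 3.77% at 3 dpi and 12.6% at 14 dpi, and the sham intervals are wide.

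At 3 dpi the 15 cells were shallower, with a median of 2823 UMIs, and held 50447 UMIs in all. Trdv4 was detected in 5, Cd163l1 in 6 and Il17a in 4 of them, against 52, 51 and 37 of 75 at 14 dpi. Cd163l1 reached 436 CPM in the 15 cells and 736 CPM in the 75, Il17a 238 and 487 CPM, and Trdv4 238 and 704 CPM. At 3 dpi 1 cell held 9 of the 12 UMIs of Il17a and 1 cell 6 of the 12 of Trdv4. In the Trdc-negative T cells of 3 dpi, Il17a and Trdv4 had 0 UMIs and Cd163l1 was at 5.75 CPM. The gene 5830411N06Rik was detected in 4 of the 15 cells, at 258 CPM, and in 5 of 75 at 14 dpi, at 61.6 CPM. Il17f had 16 UMIs at 3 dpi, all in 1 cell. Fos was at 1348 CPM and Jun at 892 CPM in the γδ T cells of 3 dpi. Ccl5 was found in 2 of the 15 cells and Klrd1 in 0. The single cell of the standard sham held 5 UMIs of Il17a, 7 of Il17f and 4 of 5830411N06Rik, and both cells of the ActD sham held Trdv4 and no Il17a. The library at 14 dpi shared 23, 17 and 36 cell barcodes with the standard sham, the ActD sham and 3 dpi, and 1 of the 75 barcodes occurred in the ActD sham as well.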

How the data were processed

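CD45+ cells of 4 droplet libraries (3′ chemistry) were analysed. The authors deposited the counts of UMIs per gene and barcode, with no normalization. Cell Ranger versions in the matrix headers were 3.0.1 (standard sham, 3 dpi) and 3.1.0 (ActD sham, 14 dpi), with the build mm10 per the labels. Totals were 60412094, 27447471, 125270696 and 129935880 UMIs for standard sham, ActD sham, 3 dpi and 14 dpi. Values rest on 373445 UMIs in the γδ T cells and 2864393 in the Trdc-negative T cells.

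Cells were gated and UMIs summed per group (Python 3.11.15, numpy 2.4.6, scipy 1.17.1). Cells of the Trdc-negative group could hold Cd4 or Cd8a, but no UMI of Cd79a, Csf1r or Csf3r. NK-like cells held Ncr1 and no Cd3, Cd79a, Csf1r or Csf3r UMI. B cells held Cd79a and Cd79b and no Cd3, Csf1r or Csf3r UMI, and microglia Csf1r and P2ry12 and no Cd3 or Cd79a UMI. Cycling cells held at least 3 of the listed proliferation genes. Ratios have exact conditional Poisson intervals and shares Clopper-Pearson intervals. Shared symbols were separated by identifier, and coordinates are from GENCODE M21, which held 30934 of 31053 identifiers. The authors removed doublets for their own analysis. Here Scrublet scores (scanpy 1.11.5) entered only as an alternative, which dropped the 947 top-scoring cells. The ratio script was tested on simulated data.

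The genes named are those of 19 gene lists and 10 marker lists, and the 15 with the highest and the 15 with the lowest ratio beyond them, among those with at least 50 UMIs and in at least 5 cells of the higher group, leaving out receptor, immunoglobulin, mitochondrial, ribosomal, haemoglobin and sex-linked genes. The cells and lists were chosen with earlier results of these data known. A listed segment, Tcrg-V2, is not in the matrices under that symbol. Of 23 alternative settings, 4 were added after seeing the data. Some results are not reported here. Sequencing reads and clustering were not used here.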

Additional observations from a re-analysis of the deposited data

How the results depend on the processing

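No paired analysis was possible because each condition had 1 library and the labels give no replicate numbers. Of the values that summarise the comparison, 113 stayed within their interval or within 1.5 times over 23 alternatives and 25 moved. Of the ratios of chosen genes 477 stayed, 117 moved and 4 turned, and of the values of lists 199 stayed and 31 moved. Some of these could not move. Scaling, gene filters, the fold limit and the choice of comparison group leave the number of γδ T cells and their share unchanged. Gene filters and the fold limit leave each ratio unchanged. The counts of values that stayed were thus fixed in part by the settings. The number of γδ T cells was 133 with the excluded genes allowed, 44 and 13 with cells called female or male only, 48 without cells holding H2-Aa or Ngp, and 23 without a Trdv4 UMI. Their share of T cells was 9.60% with no Trac UMI, 8.50% in male cells, and 3.87% and 8.75% without and with Trdv4. The count of genes at least 2-fold higher and lower was 112 and 77 against T cells with neither Cd4 nor Cd8a, 713 and 634 with genes of at least 20 UMIs, 85 and 81 with at least 200, 54 and 93 at 4-fold, and 521 and 463 with Trdv4-positive cells only. It was 187 higher in male cells and 583 lower with Trdv4-negative cells only. Of the type 17 genes 6 were higher in male cells and 5 in Trdv4-negative cells, and of the type 1 genes 6 were higher in Trdv4-negative cells and 1 with the excluded genes allowed. Only Trdv4-negative cells turned the sign of called ratios (Cxcr6 -0.13, Ccr2 -0.31, Il7r -0.19, Nkg7 0.15). These settings change the cells, the genes compared or the fold limit by construction, and further causes were not tested. TMM scaling (edgeR 4.0.16) shifted all ratios by -0.07 on the log2 scale. The 75 γδ T cells limit the depth. A gene with 0 UMIs there can still be at up to 8.03 CPM by the floor of 3 counts, and detection of segments is incomplete.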
